A study of Homo sapiens with 4 samples.

Results

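The genes described here encode the translation initiation factors (EIF symbols) and the elongation factors of the EEF1 and EEF2 families, read in SK-N-BE(2), a long-established line of human neuroblastoma cells. Members were the protein-coding rows of the count table whose symbol begins with EIF, EEF1 or EEF2, and 9 rows for EIF2AK kinases and enzymes that modify the elongation factors were left out. The rule used no measured value and gave 60 of 64252 rows, of which 19657 were protein-coding. There were 2 libraries of cells with an interfering hairpin RNA to IGF2BP3 (shIGF2BP3) and 2 of cells with a control hairpin (shControl), with no dose, time or second agent in the labels. IGF2BP3 is an RNA-binding protein known to bind and stabilise many mRNAs. The labels do not say how many hairpins were used, whether the cells were selected or cloned, or whether replicates were separate cultures. The p-values therefore reflect the spread among 4 libraries and nothing wider, and that spread may be technical.

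Translation begins when eIF2 brings the initiator tRNA to the small ribosomal subunit, eIF3 holds that subunit, and eIF4F binds the cap of the mRNA. The start codon is then found with eIF1, eIF1A and eIF5, the large subunit joins with the help of eIF5B, and the chain grows with eEF1A, which delivers tRNAs, and eEF2, which moves the ribosome along. In neuroblastoma, the transcription factor MYCN is known to drive genes of ribosome and protein synthesis, and MYC family proteins bind the E-box CACGTG. Many mRNAs of this machinery begin with a cytosine and a run of pyrimidines, the 5′ terminal oligopyrimidine (TOP) motif, through which mTOR signalling controls their translation.

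The first bases of such transcripts are shown because they divide the members into genes with and without a TOP-like start, a grouping that the fold changes below are read against. A promoter window, from 250 bases before to 50 after the start site, was found in the RefSeq table (GRCh38.p14) for 50 of the 60 members, the others being EEF1A2, EEF1D, EIF2S2, EIF3A, EIF3CL, EIF3E, EIF3G, EIF3H, EIF3L and EIF4EBP1. Each sequence runs from 10 bases before the RefSeq start to 15 bases from it, on the strand of the gene, and capitals mark the unbroken run of C and T that begins at the start.
EEF1A1, chr6:73521018-73521042, minus strand: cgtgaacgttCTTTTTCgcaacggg
EEF1B2, chr2:206159885-206159909, plus strand: ctcttcgggtCCTTTTTCCTCTCTT
EEF2, chr19:3985449-3985473, minus strand: cgtcagcgttCTCTTCCgccgtcgt
EIF4B, chr12:53006446-53006470, plus strand: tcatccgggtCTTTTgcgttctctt
EIF3D, chr22:36529152-36529176, minus strand: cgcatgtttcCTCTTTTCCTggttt
EIF2D, chr1:206612451-206612475, minus strand: ccagccgggcCCTTTTCgcggccgg
A TOP-like start, meaning C at the start followed by at least 4 bases that are C or T, was present in 13 of the 50 members (26.0%). The same letters stood at the start of 7.27% of 11318 tested protein-coding genes and 5.14% of all 27305 genes in the table. A match describes letters at the RefSeq start and not the start used in these cells.

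The E-box is shown where it stands, with 12 bases on either side, wholly upstream of the start of a member that passed the test described below. Capitals mark CACGTG, which reads the same on both strands.
EIF4E, chr4:98929341-98929370, minus strand: ctacccatcggcCACGTGaccagtcctttt
EIF4E, chr4:98929188-98929217, minus strand: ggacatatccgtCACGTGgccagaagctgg
EIF4A3, chr17:80147232-80147261, minus strand: ccagttccctttCACGTGacgaagagtgcc
EIF4G1, chr3:184314450-184314479, plus strand: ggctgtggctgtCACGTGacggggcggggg
EIF4G1, chr3:184314527-184314556, plus strand: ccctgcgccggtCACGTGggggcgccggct
EIF4H, chr7:74174145-74174174, plus strand: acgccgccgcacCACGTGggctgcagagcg
EIF2B3, chr1:44986757-44986786, minus strand: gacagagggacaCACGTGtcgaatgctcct
EIF5A2, chr3:170908807-170908836, minus strand: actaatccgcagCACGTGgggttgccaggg
EIF5A2, chr3:170908782-170908811, minus strand: cagggcgctcttCACGTGactgggcggagc
The promoter window held the E-box in 11 of 50 members (22.0%), against 12.5% of the tested protein-coding genes and 8.77% of all genes in the table.

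Total counts lay between 26755695 and 31946756 per library, and counts differed between replicates beyond sampling (chi-square divided by its degrees of freedom, 8.27 in shControl and 7.01 in shIGF2BP3). IGF2BP3 stood at 157 and 139 CPM in the shControl libraries and at 28.7 and 31.9 CPM in the shIGF2BP3 libraries, a log2 fold change of -2.28 (SE 0.09, edgeR adjusted p = 1.65e-12). CPM here is the count scaled to a common library total by edgeR's TMM factors. All 8 adrenergic neuroblastoma markers were present, with a summed level of 7188 and 7416 CPM in shControl against 6032 and 5681 CPM in shIGF2BP3. MYCN was among them, at 4635 and 4848 against 4187 and 3961 CPM. Leukocyte markers summed to between 1.95 and 3.32 CPM and endothelial markers to between 1.52 and 3.80 CPM, with CD3E and PECAM1 at 0 counts. Epithelial markers summed to between 3.21 and 6.68 CPM, with KRT5 at 0 counts. The 4 fibroblast markers were detected in all libraries, at a sum of 375 and 380 CPM in shControl and 457 and 440 CPM in shIGF2BP3, with COL1A1 higher and LUM lower in shIGF2BP3. The part of these marker genes in the results below was not tested. In bulk RNA, fewer cells of a type and less RNA per cell cannot be told apart.

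Of the 60 members, 58 were tested. The cap-binding paralog EIF4E1B and the readthrough row EEF1E1-BLOC1S5 had 0 counts in all 4 libraries, which allows up to 3 counts, or 0.0958 to 0.111 CPM, in a library. EIF1AY, a Y-linked member, is included in the counts of members, but its values are not given.

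Most of the translation factors that changed were lower in the IGF2BP3 knockdown, by modest amounts. At an adjusted p under 0.05 (edgeR quasi-likelihood test, adjusted over 19767 tested genes), 29 of the 58 tested members were lower in shIGF2BP3, 7 were higher and 22 did not pass. The background was broad: 51.5% of all tested genes passed, 25.6% lower and 25.9% higher, and among protein-coding genes 60.9% passed, 31.2% lower and 29.7% higher. Of the members 62.1% passed, a share near that of protein-coding genes, with 50% lower and 12.1% higher. The counts by role and by list given further below cover few genes each and are to be read beside these background shares. With scaling by library size alone, without TMM, the split was 24 lower and 13 higher: EEF1A1, EIF1, EIF2B5, EIF3J, EIF4A2 and EIF4B then passed as higher, and EEF2, EIF3G, EIF4G3, EIF5A and EIF5B no longer passed as lower.

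The median log2 fold change of the members was -0.21, beside 0.01 over all tested genes and -0.01 over protein-coding genes. Scaling by library size alone gave medians of -0.13 for the members and 0.09 for all tested genes. The members also moved less: their median absolute log2 fold change was 0.23, against 0.51 over all tested genes and 0.49 over protein-coding genes. Since translation factors are abundant, the same comparison was made among genes averaging 5 or more in log2 CPM. There, 49 members had a median of -0.16, and 30 of them passed, 23 lower and 7 higher. The 6641 protein-coding genes had a median of -0.05, with 72.3% past the test, 39.6% lower and 32.7% higher. At that level the members thus passed less often, and their shares differed more for genes that were higher than for genes that were lower.

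**Figure D1:**
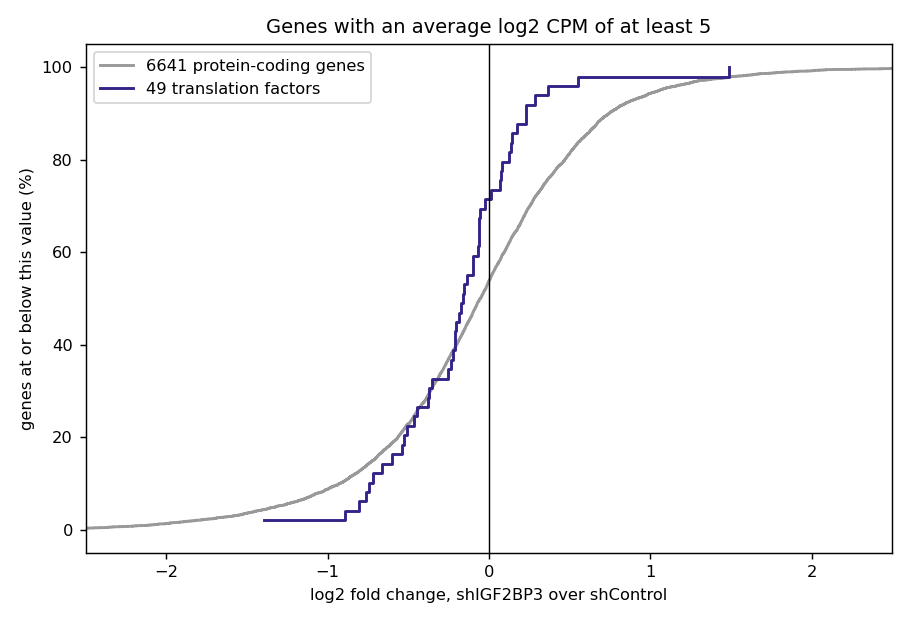
Cumulative share of genes (y axis, percent) at or below each log2 fold change of shIGF2BP3 over shControl (x axis) for 49 translation factors (dark line) and 6641 protein-coding genes (grey line), all averaging 5 or more in log2 CPM. The dark line is steeper and reaches its middle at -0.16, beside -0.05 for the grey line; 2 members lie far out, EIF2S2 at -1.39 and EIF5A2 at 1.49.

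Large changes were few. A log2 fold change of at least 0.58 in size, about 1.5-fold, together with the test was met by 14 members, 13 lower and 1 higher. That is 24.1% of the tested members, against 33.8% of all tested genes and 37.5% of protein-coding genes. By direction the shares were 22.4% lower and 1.72% higher among the members, against 18.9% and 18.6% among protein-coding genes. Among genes averaging 5 or more in log2 CPM, 8 of 49 members were lower by this measure and 1 was higher. The shares for the 6641 protein-coding genes at that level were 19.3% lower and 15.3% higher, so large falls were not more frequent among the members there. The values of the 2 groups did not overlap for 51 of 58 members, 87.9%, where the background was 74.5% of all tested genes, 80.0% of protein-coding genes and 86.7% of protein-coding genes at an average log2 CPM of at least 5.

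**Figure D2:**
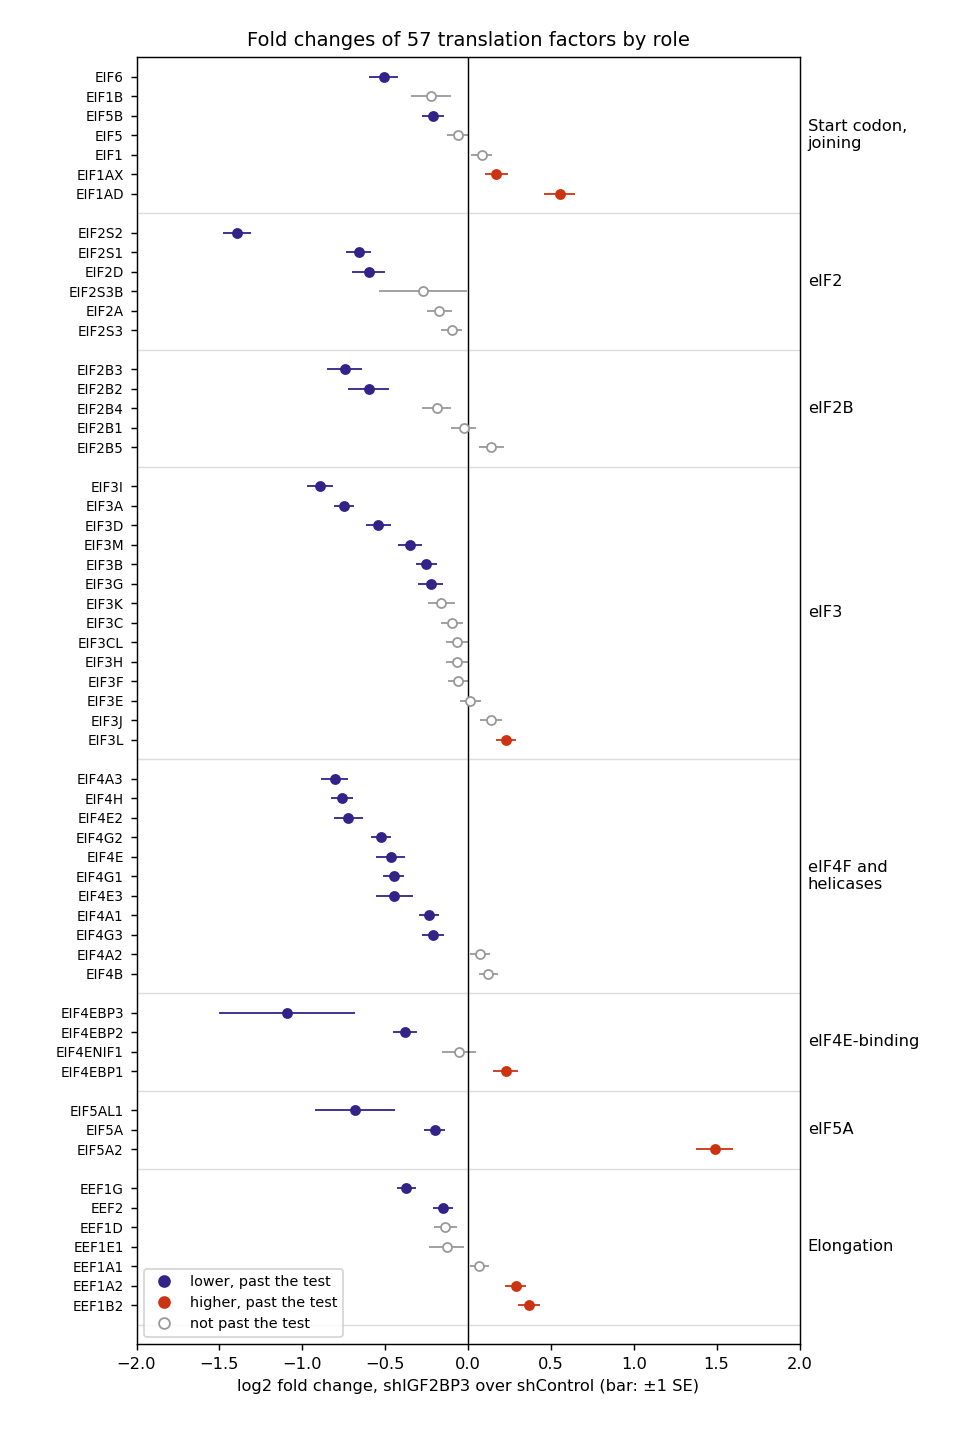
Log2 fold change of shIGF2BP3 over shControl (x axis, bars ± 1 SE) for 57 members grouped by role and sorted within each group; filled points passed the edgeR test and open points did not. Filled blue points, lower in shIGF2BP3, make up 9 of 11 in the group of eIF4F and helicases, 3 of 6 in eIF2 and 6 of 14 in eIF3. EIF5A2 at 1.49 stands apart on the right.

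The largest fall among the tested members was in eIF2, the trimer that carries the initiator tRNA, and its subunit genes changed unevenly. EIF2S2, which encodes the beta subunit (chr20:34088298-34112332 in GRCh38), stood at 124 and 115 CPM in the shControl libraries and at 46.0 and 44.6 CPM in the shIGF2BP3 libraries. Both shIGF2BP3 values lay far below both shControl values, a 2.63-fold lower level (log2 -1.39, SE 0.08, edgeR adjusted p = 1.89e-10). EIF2S1, the alpha subunit that stress kinases phosphorylate, stood at 151 and 139 CPM in shControl and at 91.1 and 92.1 CPM in shIGF2BP3. It was 1.58-fold lower (log2 -0.66, SE 0.07, adjusted p = 7.81e-07). EIF2S3, the gamma subunit that holds the tRNA and GTP, was at 224 and 214 CPM against 201 and 207 CPM, and did not pass (log2 -0.10, adjusted p = 0.224).

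The ratio of subunit counts therefore differed between the groups. For each EIF2S3 count there were 0.551 and 0.537 EIF2S2 counts in shControl and 0.228 and 0.215 in shIGF2BP3. For EIF2S1 the same ratio was 0.674 and 0.649 in shControl and 0.452 and 0.444 in shIGF2BP3. Neither ratio overlapped between the groups, and with 2 libraries against 2 the smallest two-sided p an exact permutation test can give is 0.333.

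EIF2D, which can bring initiator tRNA to the ribosome without GTP, was at 45.5 and 43.8 CPM in shControl against 28.9 and 30.0 CPM in shIGF2BP3 (log2 -0.60, SE 0.10, edgeR adjusted p = 6.57e-05). The groups did not overlap. EIF2A, another single-chain tRNA carrier, had a log2 fold change of -0.17 and did not pass (adjusted p = 0.0684). Without shControl replicate 2 it passed as lower (log2 -0.30, adjusted p = 0.00273), while without shControl replicate 1 its log2 fold change was -0.07. EIF2S3B, a retrogene copy of EIF2S3 with at most 144 counts, did not pass (log2 -0.27). The 6 eIF2 genes had a median log2 fold change of -0.43, with 3 lower, 0 higher and 3 not past the test. Among protein-coding genes 31.2% were lower and 29.7% higher. The summed level of the 6 genes was 737 and 677 CPM in shControl and 522 and 536 CPM in shIGF2BP3.

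The exchange factor eIF2B, which reloads eIF2 with GTP, has 5 subunit genes, of which 2 fell. EIF2B3 (gamma) stood at 40.2 and 39.3 CPM in shControl and 23.5 and 24.0 CPM in shIGF2BP3 (log2 -0.74, SE 0.11, edgeR adjusted p = 1.17e-05). EIF2B2 (beta) stood at 29.9 and 26.9 CPM against 19.3 and 18.1 CPM (log2 -0.60, SE 0.12, adjusted p = 0.000475). In both genes the groups were separate. EIF2B4, EIF2B1 and the catalytic epsilon subunit EIF2B5 did not pass, with log2 fold changes of -0.19, -0.03 and 0.14.

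The genes that act on eIF2 from outside moved in both directions. Of 8 such genes (the 4 eIF2 kinases, the phosphatase subunits, GCN1 and IMPACT), 2 were lower, 3 were higher and 3 did not pass. EIF2AK3 (PERK, the kinase of endoplasmic reticulum stress) was at 25.4 and 21.0 CPM in shControl against 57.6 and 52.8 CPM in shIGF2BP3 (log2 1.26, SE 0.11, edgeR adjusted p = 3.11e-08). PPP1R15B, the constitutive phosphatase subunit, had a log2 fold change of 0.27 (adjusted p = 0.00224) and EIF2AK4 (GCN2, which senses amino acid shortage) one of -0.29 (adjusted p = 0.00611).

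The eIF3 complex, the scaffold on the small subunit, also changed unevenly: 6 of its 14 genes were lower, EIF3L was higher and 7 did not pass. Among protein-coding genes averaging 5 or more in log2 CPM, 39.6% were lower and 32.7% higher, so falls were about as frequent there. EIF3I, a WD-repeat subunit (chr1:32221928-32231604), was at 113 and 110 CPM in shControl and at 61.1 and 58.8 CPM in shIGF2BP3. It was 1.86-fold lower (log2 -0.89, SE 0.08, edgeR adjusted p = 2.93e-08). EIF3A, the largest subunit and part of the core (chr10:119033670-119080823), was at 572 and 581 CPM against 337 and 351 CPM, a 1.68-fold lower level (log2 -0.75, SE 0.06, adjusted p = 1.26e-08). For both genes the groups were well apart.

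The other subunits that fell did so by less. EIF3D, which can itself contact the cap of some mRNAs, was at 225 and 212 CPM in shControl against 159 and 141 CPM in shIGF2BP3 (log2 -0.54, SE 0.07, edgeR adjusted p = 7.10e-06). EIF3M had a log2 fold change of -0.35, EIF3B of -0.25 and EIF3G of -0.23. The call of EIF3B ended without shIGF2BP3 replicate 2 (adjusted p = 0.0522), and that of EIF3G without shControl replicate 2 (adjusted p = 0.0553) or shIGF2BP3 replicate 1 (adjusted p = 0.143), and by library size alone (log2 -0.15, adjusted p = 0.122).

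EIF3L was at 452 and 431 CPM in shControl and at 527 and 507 CPM in shIGF2BP3, so that both shIGF2BP3 libraries were above both controls (log2 0.23, SE 0.06, edgeR adjusted p = 0.00462). Its call ended without shControl replicate 2 (log2 0.18, adjusted p = 0.0553). The count ratio of EIF3I to EIF3L was 0.250 and 0.255 in shControl and 0.116 in each shIGF2BP3 library. The subunits that did not pass were EIF3K (log2 -0.16), EIF3C (-0.10), EIF3CL (-0.07), EIF3H (-0.06), EIF3F (-0.06), EIF3E (0.01) and the loosely bound EIF3J (0.14). EIF3C and EIF3CL are near-identical copies on chromosome 16 whose reads could have been split either way, and their count ratio lay between 0.927 and 0.967 in the 4 libraries. The median of the eIF3 genes was -0.13 by TMM and -0.05 by library size alone, and their summed level was 3565 and 3488 CPM in shControl against 3147 and 3075 CPM in shIGF2BP3.

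**Figure D3:**
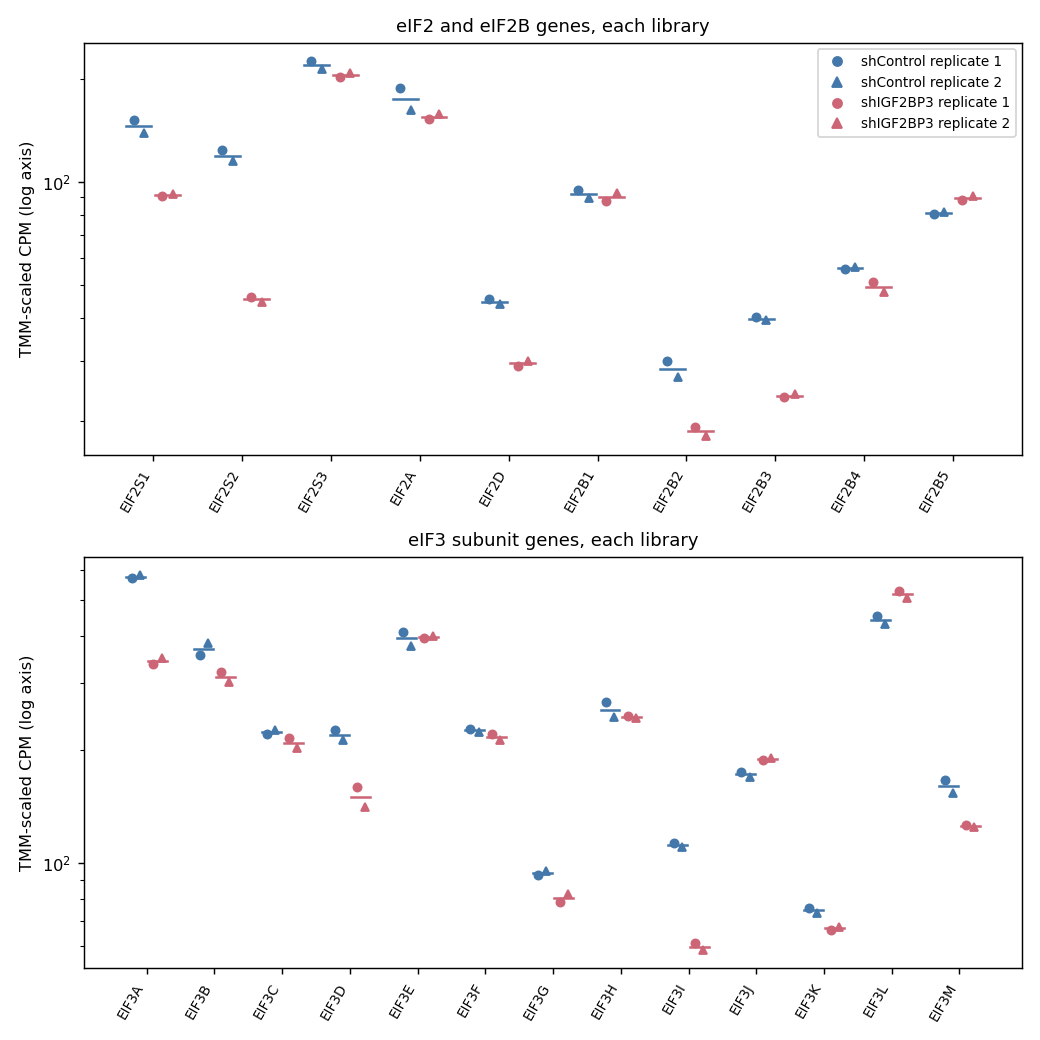
TMM-scaled CPM (y axis, log scale) of the eIF2 and eIF2B genes (top) and the eIF3 subunit genes (bottom) in each library; circles are replicate 1, triangles replicate 2, horizontal lines group means, blue shControl and red shIGF2BP3. EIF2S2, EIF3A and EIF3I show the widest gaps, while EIF2S3, EIF3E and EIF3H sit at like levels in both groups and EIF3L is higher in shIGF2BP3.

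Most genes of the group of cap-binding eIF4F, helicases and scaffolds were lower, though not all of these genes bind the cap. Of 11 tested genes 9 were lower, 0 were higher and 2 missed the threshold. Among all tested genes 25.6% were lower and 25.9% higher. Among protein-coding genes averaging 5 or more in log2 CPM the shares were 39.6% and 32.7%. EIF4B passed as higher by DESeq2 (adjusted p = 0.0440) and by limma voom (adjusted p = 0.0378). The median log2 fold change was -0.45, beside 0.01 over all tested genes. By library size alone 8 were lower and 2 higher (EIF4A2 and EIF4B), with a median of -0.37. The summed level was 4489 and 4417 CPM in shControl and 3733 and 3738 CPM in shIGF2BP3. All 11 tested genes had groups that did not overlap, beside 86.7% of protein-coding genes that average 5 or more in log2 CPM.

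Among the 3 proteins of eIF4F itself, EIF4E, which binds the cap, was at 111 and 93.9 CPM in shControl and 74.3 and 73.8 CPM in shIGF2BP3 (log2 -0.47, SE 0.09, edgeR adjusted p = 0.000212). EIF4G1, the main scaffold, was at 477 and 518 CPM against 372 and 357 CPM (log2 -0.45, SE 0.06, adjusted p = 1.30e-05). The helicase EIF4A1 fell by less, from 436 and 429 CPM to 367 and 369 CPM (log2 -0.23, SE 0.06, adjusted p = 0.00349). All of these were lower in both shIGF2BP3 libraries than in either control.

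The paralogs of EIF4E fell too. EIF4E2 (4EHP), a cap-binding repressor, stood at 66.0 and 67.5 CPM against 40.3 and 40.7 CPM (log2 -0.72, SE 0.09, edgeR adjusted p = 1.91e-06), and EIF4E3 had a log2 fold change of -0.44 (adjusted p = 0.00268). Of the scaffold's relatives, EIF4G2 (DAP5), which lacks the EIF4E-binding part, was at 1124 and 1028 CPM in shControl and at 740 and 755 CPM in shIGF2BP3 (log2 -0.53, SE 0.06, adjusted p = 1.31e-06). EIF4G3 had a log2 fold change of -0.21 (adjusted p = 0.0133), a call that was lost without shIGF2BP3 replicate 1 (-0.17, adjusted p = 0.118) and by library size alone (-0.13, adjusted p = 0.108).

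The helicases and their cofactors diverged. EIF4A3, the helicase of the exon junction complex rather than of initiation, was at 111 and 101 CPM in shControl and 61.6 and 59.8 CPM in shIGF2BP3 (log2 -0.80, SE 0.08, edgeR adjusted p = 2.04e-07). EIF4H, a cofactor that stimulates the helicase, was at 406 and 419 CPM against 251 and 236 CPM (log2 -0.76, SE 0.06, adjusted p = 1.83e-08). EIF4B, the other cofactor, was at 1006 and 1029 CPM against 1113 and 1104 CPM and did not pass (log2 0.12, adjusted p = 0.0838), and EIF4A2 did not pass either (log2 0.07, adjusted p = 0.337). EIF4A1 accordingly made up 46.4% and 47.3% of the counts of EIF4A1 and EIF4A2 in shControl and 42.0% and 41.2% in shIGF2BP3. With the spread of 2 libraries a group, this share did not overlap between the groups.

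The eIF4E-binding proteins, which block eIF4E from eIF4G when mTOR is inactive, went different ways. EIF4EBP1 was at 88.7 and 91.2 CPM in shControl and at 104 and 107 CPM in shIGF2BP3 (log2 0.23, SE 0.07, edgeR adjusted p = 0.0157). Its call ended without shControl replicate 1 (adjusted p = 0.0721) and without shIGF2BP3 replicate 2 (adjusted p = 0.0880). EIF4EBP2 was at 130 and 126 CPM against 94.9 and 102 CPM (log2 -0.38, SE 0.07, adjusted p = 0.000311).

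EIF4EBP1 made up 40.7% and 41.9% of the counts of EIF4EBP1 and EIF4EBP2 in shControl and 52.3% and 51.2% in shIGF2BP3 (95% Clopper-Pearson intervals, for counting error only, 39.4% to 41.9%, 40.8% to 43.1%, 51.0% to 53.6% and 49.9% to 52.5%). Scaled to transcript length, EIF4EBP1 was the higher of the pair in all libraries. That ratio of EIF4EBP1 to EIF4EBP2 was 4.87 and 5.14 in shControl and 7.80 and 7.46 in shIGF2BP3. EIF4EBP3 had 60 and 56 counts against 29 and 23 (log2 -1.09, SE 0.41, edgeR adjusted p = 0.0331). Its call ended without shControl replicate 1 (adjusted p = 0.153), shIGF2BP3 replicate 1 (adjusted p = 0.0813) or shIGF2BP3 replicate 2 (adjusted p = 0.159), with no filter (adjusted p = 0.0593) and by DESeq2 (adjusted p = 0.118). The gene shares 507 exon bases with the readthrough row ANKHD1-EIF4EBP3, which had a mean of 3906 counts and a log2 fold change of -0.47, so its reads are uncertain. EIF4ENIF1 (4E-T), which carries eIF4E into the nucleus and to processing bodies, did not pass (log2 -0.05).

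Further poly(A)-binding proteins and eIF4F regulators, a list of 17 genes, were 9 lower, 4 higher and 4 not past the test. PABPC1, which circularises mRNA by binding eIF4G1, was at 1486 and 1389 CPM in shControl and at 899 and 885 CPM in shIGF2BP3 (log2 -0.69, SE 0.06, edgeR adjusted p = 2.86e-08). PAIP2, an inhibitor of PABPC1, had a log2 fold change of -0.86 (adjusted p = 2.01e-08). ABCF1, an ATPase that binds eIF2 and ribosomes, was at 20.6 and 26.3 CPM against 7.62 and 7.98 CPM (log2 -1.59, SE 0.17, adjusted p = 2.78e-07).

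EIF5A2 was the member that rose most. eIF5A helps ribosomes through stretches such as prolines and is the carrier of hypusine, a modified lysine, and EIF5A2 is its paralog with a narrower tissue range. EIF5A2 (chr3:170888415-170908693) stood at 20.2 and 17.8 CPM in shControl and at 50.3 and 56.2 CPM in shIGF2BP3. Both shIGF2BP3 libraries were far above both controls, a 2.81-fold higher level (log2 1.49, SE 0.11, edgeR adjusted p = 4.17e-09). It was the single member past the test with a rise of at least 0.58 on the log2 scale.

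EIF5A itself was at 219 and 218 CPM in shControl and 189 and 191 CPM in shIGF2BP3 (log2 -0.20, SE 0.06, edgeR adjusted p = 0.0145), a call that was lost without shIGF2BP3 replicate 1 (adjusted p = 0.0893) or shIGF2BP3 replicate 2 (adjusted p = 0.0568), and by library size alone (log2 -0.12, adjusted p = 0.115). EIF5A2 made up 8.46% (7.79% to 9.16%) and 7.55% (6.96% to 8.18%) of the counts of both genes in shControl. In shIGF2BP3 its share was 21.1% (20.1% to 22.1%) and 22.7% (21.7% to 23.7%), the brackets again giving 95% Clopper-Pearson intervals. These are shares of counts and not of transcripts. Scaled to transcript length, the ratio of EIF5A2 to EIF5A was 0.0250 and 0.0221 in shControl and 0.0721 and 0.0793 in shIGF2BP3. EIF5AL1, a retrogene copy of EIF5A with 93 to 193 counts, had a log2 fold change of -0.68 (adjusted p = 0.0256), a call that ended without shControl replicate 2 (-0.60, adjusted p = 0.123) or shIGF2BP3 replicate 1 (-0.55, adjusted p = 0.172), with no filter (adjusted p = 0.0535) and by DESeq2 (adjusted p = 0.0856). Reads of EIF5A and EIF5AL1 could have been split either way. The summed level of the 3 genes was 245 and 242 CPM in shControl and 242 and 252 CPM in shIGF2BP3. That sum is not scaled to transcript length, so it does not show that total eIF5A transcript was unchanged. EIF5A stood at 145 and 144 CPM per kb in shControl and at 125 and 127 CPM per kb in shIGF2BP3. EIF5A2 stood at 3.619 and 3.182 CPM per kb in shControl and at 8.999 and 10.042 CPM per kb in shIGF2BP3. EIF5AL1 was at most 1.61 CPM per kb.

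The enzymes that modify eIF5A and the elongation factors, 16 measured genes, were 5 lower, 5 higher and 6 not past the test. DHPS, which performs the first step of hypusine formation, was at 80.6 and 85.6 CPM against 50.9 and 49.6 CPM (log2 -0.73, SE 0.08, edgeR adjusted p = 9.88e-07). DOHH, which completes it, did not pass (log2 -0.19, adjusted p = 0.310). EEF2KMT, a lysine methyltransferase of eEF2, had a log2 fold change of 1.06 (adjusted p = 1.12e-07), and DPH2, of the diphthamide pathway on eEF2, one of 0.79 (adjusted p = 3.79e-05).

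**Figure D4:**
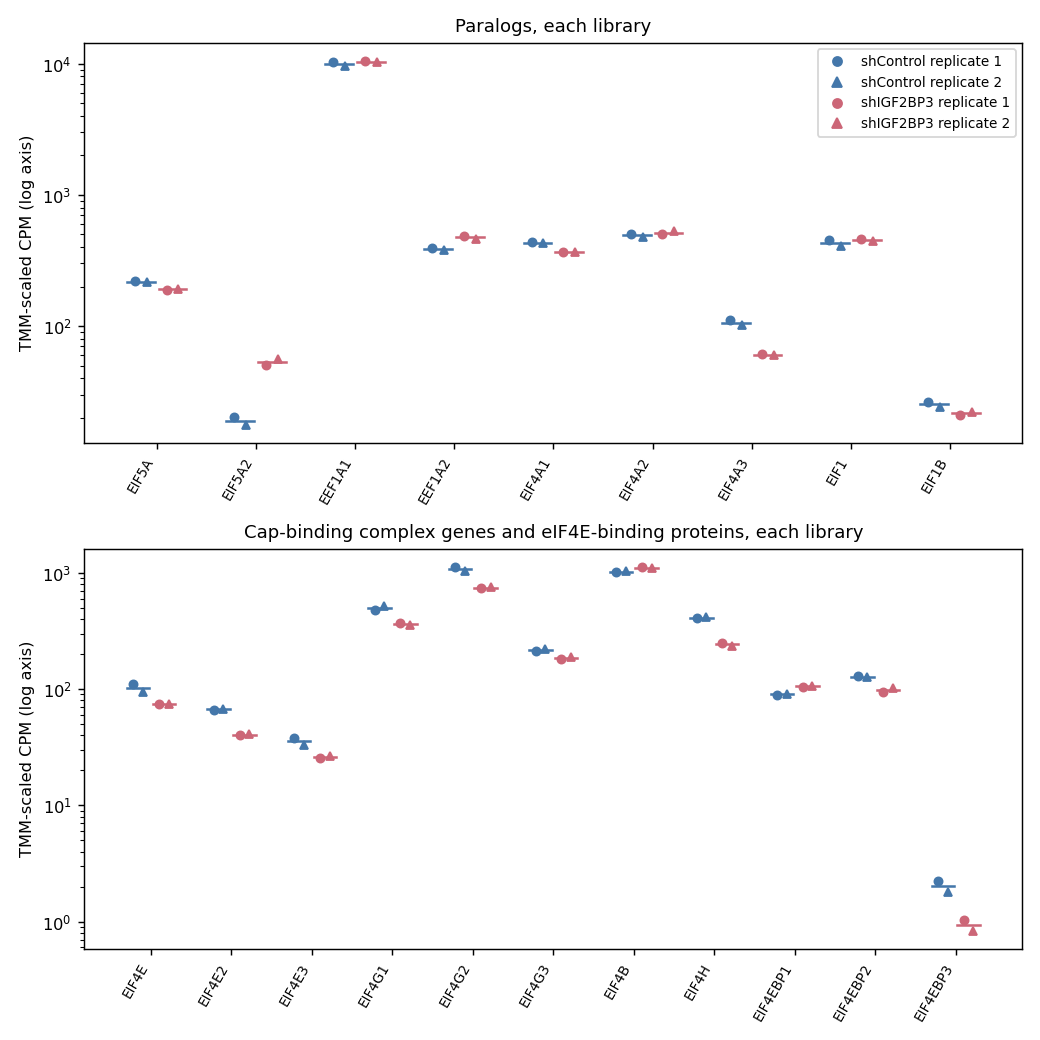
TMM-scaled CPM (y axis, log scale) in each library. The top shows paralogs of eIF5A, eEF1A, eIF4A and eIF1. The bottom shows EIF4E and EIF4G genes, the cofactors EIF4B and EIF4H, and eIF4E-binding proteins. Circles are replicate 1, triangles replicate 2, lines group means, blue shControl and red shIGF2BP3. EIF5A2 rises from 20.2 and 17.8 CPM to 50.3 and 56.2 CPM, while EIF5A stays between 189 and 219 CPM in all libraries.

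The elongation factors, which carry most of the members' counts, changed little in sum: 15658 and 15270 CPM in shControl against 15666 and 15282 CPM in shIGF2BP3. EEF1A1 alone made up most of that sum, at 10186 and 9556 CPM in shControl and 10474 and 10234 CPM in shIGF2BP3. The sum is not scaled to transcript length and does not show the changes of single genes, which went both ways. The median log2 fold change of the 7 genes was -0.13, with 2 lower, 2 higher and 3 not past the test; by library size alone 1 was lower and 3 were higher. That median was -0.05 by library size alone and -0.07 without shControl replicate 1. Per kilobase of the principal transcript, the 5 members with the highest level over all libraries were EEF1A1 (2277 CPM per kb), EEF2 (930 CPM per kb), EEF1G (877 CPM per kb), EIF4G2 (463 CPM per kb) and EEF1B2 (414 CPM per kb). The order depends on the 1 transcript length taken per gene, such as 1969 bases for EIF4G2 and 4441 bases for EEF1A1. Whether these cells use those transcripts was not tested.

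EEF1A1, the main carrier of tRNA to the ribosome, was at 10186 and 9556 CPM in shControl and at 10474 and 10234 CPM in shIGF2BP3, and did not pass (log2 0.07, edgeR adjusted p = 0.347). Its paralog EEF1A2, found in neurons and muscle, was at 394 and 382 CPM against 487 and 461 CPM (log2 0.29, SE 0.06, adjusted p = 0.000784). EEF1A2 made up 3.73% and 3.85% of the counts of the pair in shControl and 4.44% and 4.31% in shIGF2BP3. The shares did not overlap between the groups. Scaled to transcript length, the ratio of EEF1A2 to EEF1A1 was 0.0853 and 0.0882 in shControl and 0.103 and 0.0992 in shIGF2BP3.

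The exchange complex that reloads eEF1A split. EEF1B2, a catalytic subunit, was at 421 and 373 CPM in shControl and at 508 and 516 CPM in shIGF2BP3 (log2 0.37, SE 0.07, edgeR adjusted p = 0.000168). EEF1G, the structural gamma subunit, was at 1500 and 1515 CPM against 1174 and 1153 CPM (log2 -0.37, SE 0.06, adjusted p = 2.72e-05). EEF1D and EEF1E1, another exchange subunit and a scaffold of the tRNA synthetase complex, did not pass (log2 -0.14 and -0.13). EEF2, the translocase, was at 2955 and 3239 CPM against 2838 and 2734 CPM (log2 -0.15, adjusted p = 0.0456). Its call ended without shControl replicate 2 (-0.10, adjusted p = 0.201), shIGF2BP3 replicate 1 (-0.18, adjusted p = 0.0903) or shIGF2BP3 replicate 2 (-0.12, adjusted p = 0.250). It also ended by library size alone (-0.07, adjusted p = 0.329), with no filter (adjusted p = 0.128), with a smallest count of 50 (adjusted p = 0.0699) and in the older edgeR fit (adjusted p = 0.0624).

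Among the 8 genes of start codon recognition and subunit joining, 3 were lower, 2 were higher and 3 did not pass. EIF6, which keeps the large subunit from joining too early, was at 63.0 and 61.2 CPM in shControl and at 44.6 and 42.6 CPM in shIGF2BP3 (log2 -0.51, SE 0.09, edgeR adjusted p = 0.000102). EIF5B, the GTPase of subunit joining, had a log2 fold change of -0.21, a call that was lost without shIGF2BP3 replicate 1 (-0.18, adjusted p = 0.0990) and by library size alone (-0.13, adjusted p = 0.0934). EIF1AX, which helps the scanning ribosome, was at 147 and 142 CPM against 162 and 163 CPM (log2 0.17, SE 0.07, adjusted p = 0.0442). Leaving out shControl replicate 1, shControl replicate 2, shIGF2BP3 replicate 1 or shIGF2BP3 replicate 2 each ended that call, with adjusted p of 0.0678, 0.259, 0.122 and 0.142. It also ended with RLE scaling, no filter, DESeq2, the replicate block and summed copies, with adjusted p from 0.0507 to 0.0832. EIF5 (log2 -0.06), EIF1 (0.08) and its paralog EIF1B (-0.23) did not pass.

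EIF1AD, named for its eIF1A-like domain, was at 37.8 and 38.1 CPM in shControl and at 58.2 and 53.2 CPM in shIGF2BP3. Both shIGF2BP3 libraries were higher (log2 0.55, SE 0.09, edgeR adjusted p = 7.72e-05). Its row shares 98 exon bases with BANF1 on the opposite strand, which had 317% of its counts and a log2 fold change of -0.76, so the 2 rows moved in opposite directions. In all, 27 members share exon bases with an opposite-strand row, and for 15 of them that row held at least 10% of the member's counts, among them EEF1B2, EIF2S1, EIF3G, EIF4E2, EIF4E3, EIF4G2, EIF5A and EIF5B. Whether the counting used strand is not given in the sources used here, so these values are uncertain. EIF2S2, whose locus overlaps that of RALY on the opposite strand, shares no exon bases with it. RALY had 141% of the counts of EIF2S2 and was also lower (log2 -0.76). EIF4E3 shares 299 exon bases with GPR27, which had 112% of its counts and a log2 fold change of -0.70. Other partners rose where the member fell, such as GPS2 (0.50) at EIF5A and CTR9 (0.42) at EIF4G2. The part of these rows in the members' values was not tested.

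Release, recycling and rescue, the steps that end translation, were read from 8 further genes, of which 4 were lower, 1 was higher and 3 did not pass. DENR and MCTS1 form a dimer that recycles small subunits and resembles parts of EIF2D. DENR was at 94.8 and 101 CPM in shControl and at 42.4 and 46.9 CPM in shIGF2BP3 (log2 -1.13, SE 0.09, edgeR adjusted p = 5.23e-09). MCTS1 was at 35.7 and 32 CPM against 15.1 and 17.9 CPM (log2 -1.03, SE 0.13, adjusted p = 2.01e-06). HBS1L, which rescues stalled ribosomes, had a log2 fold change of -0.57 (adjusted p = 7.29e-06). Over all 49 listed genes outside the member rule, the median was -0.13, with 20 lower, 13 higher and 16 not past the test. Among protein-coding genes 31.2% were lower and 29.7% higher.

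The fold changes were then set beside the sequence groups shown at the opening. The 13 members with a TOP-like start were 4 lower (EEF2, EIF2D, EIF3D and EIF3M), 1 higher (EEF1B2) and 8 not past the test, with a median log2 fold change of -0.15. The 35 tested members with a promoter window but without that start were 22 lower, 3 higher and 10 not past the test, with a median of -0.25. Over all 823 tested protein-coding genes with a TOP-like start the median was -0.07, with 300 lower and 209 higher. A second grouping, 9 members whose mRNAs are known TOP mRNAs, gave 2 lower (EEF1G and EEF2), 1 higher (EEF1B2) and 6 not past the test. Its median was -0.06 by TMM, 0.02 by library size alone and 5.8e-05 without shControl replicate 1, so its sign is not settled. The groupings differ for EEF1G, a known TOP mRNA without a TOP-like start at the RefSeq start. It is therefore among the 22 lower members without that start.

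The 11 members with an E-box were 6 lower, 1 higher and 4 not past the test, with a median log2 fold change of -0.45 and a range from -1.09 (EIF4EBP3) to 1.49 (EIF5A2). The 37 tested members without one were 20 lower, 3 higher and 14 not past the test, with a median of -0.21. Genes whose windows hold the E-box thus include both the member that rose most and several of those that fell, among them EIF4A3, EIF4H, EIF2B3, EIF4E and EIF4G1. These counts describe the members and were not tested. No fold changes over all tested protein-coding genes with the E-box stand beside them, so the medians cannot be read as tied to the motif. Over all tested protein-coding genes, 31.2% were lower and 29.7% higher, with a median of -0.01.

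Processed copies of these genes are numerous in the genome and can take reads from them. The table held 154 pseudogene rows named for members, with 1.61% to 2.02% of the counts of these rows and the members together. The share in pseudogene rows was highest for EIF4E, at 12.1%, followed by EIF3F (6.33%), EEF1B2 (4.14%), EEF1A1 (3.76%) and EIF2S2 (3.51%). With copies and pseudogenes summed into their parents, 34 of 55 rows passed, 28 lower and 6 higher.

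Of the 35 members past the test whose values are given, 24 passed under all 13 alternatives in scaling, filter, test, block, copies or libraries, the fold condition left aside, 20 lower and 4 higher (EEF1A2, EEF1B2, EIF1AD and EIF5A2). The other 11 lost the call under at least 1 of the 13, and 0 of the 35 changed sign. The share of all tested genes that kept their call under the same 13 is not given here. These counts therefore do not show whether the members were more or less stable than other genes.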

How the data were processed

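Per the labels' protocols, 4 libraries were made with a TruSeq kit from TRIzol-extracted RNA. The authors deposited whole-number counts per Ensembl gene, without further scaling. The submitters' processing notes name HISAT2 2.2.0, StringTie and hg38. How reads were counted, with which annotation and whether by strand, is not given in the sources used here, and counts from StringTie would be rounded estimates.

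Symbols came from a table of gene names and coordinates from GENCODE release 29 (GRCh38), while 7661 rows had no symbol. Counts were filtered by filterByExpr (smallest count 10), scaled by TMM and tested by the robust quasi-likelihood test of edgeR 4.0.16 in R 4.3.3, with Benjamini-Hochberg adjustment over 19767 genes and a threshold of 0.05. There were 2 residual degrees of freedom, plus a median of 15.06 from the prior. The common biological coefficient of variation was 12.6%. SE is the size of the log2 fold change divided by the square root of the F statistic. Levels are TMM-scaled CPM, and a level per kilobase uses the length of 1 principal transcript. The depth of 26755695 to 31946756 counts per library sets the precision, and intervals and limits of 0 cover counting error only.

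The members, their role lists and the lists of other genes were chosen with earlier results of these data known. The rule for named genes took members past the test that moved by 0.58 or more on the log2 scale in groups that do not overlap, the member of each role list with the smallest p, the 5 highest per length, their listed paralogs, and up to 3 genes by smallest p in each list of other genes. DOHH was named after its value was seen, and the remaining members are named so that each complex is complete. Fits were tested on simulated data. The alternatives were RLE scaling, library size alone, no filter, a smallest count of 50, DESeq2 1.42.0, limma 3.58.1 voom, a replicate block, summed copies, a fold condition (applied to counts of members), each library left out, and an older edgeR fit that was chosen after seeing the data.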

Additional observations from a re-analysis of the deposited data

How the results depend on the processing

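Of 737 values for 57 members under the alternatives, 677 kept their direction and their side of the threshold, 39 (in 11 members) lost the call, 9 (in 7 members) gained one and 12 (in 9 members, none of them past the test) changed sign. By library size alone 13 members were higher, against 7. With a fold condition of 0.58 on the log2 scale the count was 14 (13 lower, 1 higher), and 15 among the other translation genes, because the condition is stricter. Sign changes by library size alone gave EIF2B1 0.0541, EIF3CL 0.0138, EIF3F 0.0222, EIF3H 0.0175, EIF4ENIF1 0.0256 and EIF5 0.0206. With each library left out in turn, EIF1 ranged from -0.0059 to 0.152, EIF2B1 from -0.0832 to 0.0116, EIF2S3B from -0.648 to 0.0420, EIF3E from -0.0644 to 0.0756 and EIF3H from -0.147 to 5.8e-05. The cause was not tested. Leaving out each library, where a lone library is assumed to vary like the other group, gave 28 to 33 members past the test, 22 to 28 lower, 5 to 6 higher, 23 to 30 other genes past the test, and a log2 fold change of IGF2BP3 between -2.39 and -2.20.

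With the replicate number as a block, 35 members passed, 29 lower and 6 higher, and the call of EIF1AX ended (edgeR adjusted p = 0.0759). Deviations of same-numbered libraries had a correlation of 0.02 over 2 pairs, so the numbers were not taken as pairs. DESeq2 called 34 members, voom 37, RLE scaling 35, no filter 32, a smallest count of 50 34 and the older edgeR fit, chosen after seeing the data, 35. Depth limits EIF4EBP3, EIF5AL1 and EIF2S3B, each under 200 counts per library.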
